A study of Sus scrofa with 6 samples.

Results

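The messenger RNAs described here encode BTG4 and 9 subunits of the CCR4-NOT complex (CNOT6, CNOT6L, CNOT7, CNOT8, CNOT1, CNOT2, CNOT3, CNOT9 and CNOT10) in porcine 2-cell embryos. They were chosen by name, as the genes of poly(A) tail shortening during the clearance of maternal mRNA. The choice was made with earlier results of these data known. All 10 were found by an exact match of the gene name among the 17678 genes of the deposited table. Only CNOT6, CNOT6L, CNOT7 and CNOT8 are themselves deadenylases. The other 6 bridge, hold or steer the nucleases, so the genes are called BTG4 and the CCR4-NOT subunits below.

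Porcine MII oocytes, matured in vitro from ovaries of crossbred animals collected at a slaughterhouse, were injected either with a non-specific siRNA (NC) or with siRNAs against SIN3A (KD), of which 3 were directed at different sites. SIN3A is the scaffold of the SIN3/HDAC repressor complex. All oocytes were then activated without sperm, so that NC and KD embryos alike were parthenogenetic, and polyadenylated RNA was sequenced 32 h after activation. Each group had 3 libraries of 20 pooled embryos. The replicates are described as independent, without word on whether each came from its own collection of oocytes, and the p-values measure the spread between these libraries. In pooled embryos, less RNA in every cell and fewer cells with the RNA cannot be told apart.

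A growing oocyte stores mRNA that is later removed, first with the help of maternal proteins and later with that of newly made RNA. Removal usually begins with shortening of the poly(A) tail by CCR4-NOT, after which the cap is taken off and the body of the mRNA is degraded. BTG4 is an oocyte protein that joins CCR4-NOT to mRNAs being translated. Pig embryos at the 2-cell stage lie before the main activation of their own genome. Because oligo(dT) was used to purify the RNA, an mRNA with a very short tail may be recovered less well, and a measured abundance reflects both the number of molecules and their capture.

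The sequences shown first are the SIN3A target of siRNA 3 and the stretch nearest to it in CNOT6, with its counterpart in CNOT6L. CNOT6 was the 1 gene of the 10 that passed the test. Whether this partial match has any part in the lower abundance of CNOT6 was not tested. The target of siRNA 3 lies in exon 15 of SIN3A at chr7:58221254-58221272 on the plus strand of Sscrofa11.1, and is present in 11 of 11 RefSeq mRNAs of SIN3A. Among all 19-base stretches of the longest CNOT6 mRNA, the nearest to that target had 4 mismatches and lay in the coding sequence, in exon 11 of 12, at chr2:78137926-78137944 on the minus strand. It was present in 5 of 5 CNOT6 mRNAs. In CNOT6L the stretch aligned with it had 7 mismatches to the same target and lay at chr8:73205383-73205401 on the minus strand, also in exon 11 of 12. The CNOT6 and CNOT6L stretches had 16 of 19 bases in common. All are written 5′ to 3′ as DNA of the mRNA strand, and capitals mark the bases that differ from the SIN3A target.
SIN3A, target of siRNA 3: ccaaggtcctgagatctaa
CNOT6, nearest stretch: TcaaggAActgagatAtaa
CNOT6L, aligned stretch: TcaaggAActAagGtACaa

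The knockdown itself was seen first in SIN3A. Its normalized abundance was 37361, 33964 and 32404 in NC replicates 1, 2 and 3 and 3271, 1079 and 4173 in KD replicates 1, 2 and 3. The KD mean was 8.22% of the NC mean, and the log2 fold change was -3.81 (SE 0.31, adjusted p = 8.45e-06, limma). KD replicate 2 had the least SIN3A and KD replicate 3 the most, so the KD libraries differed in the depth of the knockdown. Markers of the oocyte were abundant in all 6 libraries. The summed abundance of the 7 of 10 listed oocyte markers found by name was 29039 to 32832 in NC and 30484 to 34963 in KD. Of 10 listed markers of cumulus and granulosa cells, 8 were found, and their summed abundance was 20.7 to 27.8 in NC and 16.9 to 48.3 in KD. No cumulus or granulosa marker found was at 0 in all libraries, and 7 of the 8 had a mean under 10, STAR being the highest at 15.4. Depth was roughly estimated by taking the smallest repeated low value, or a whole fraction of it, as 1 read. It came to 7820000 to 15850000 reads per library, from 2 to 4 repeated values in each. Only 16.1% to 48.1% of low values were whole multiples of that step, so these depths are uncertain.

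Over all genes, 11986 had a mean of at least 10 and were tested with limma on log2(value + 1), with the Benjamini-Hochberg adjustment across all of them. In the comparison of KD with NC, 19 genes (0.159%) had an adjusted p under 0.05, of which 12 (0.1%) were lower and 7 (0.0584%) higher in KD. Of BTG4 and the 9 CCR4-NOT subunits, all 10 were tested, 1 was lower, none was higher and 9 did not pass. Unadjusted p-values under 0.05 were found for 2 of the 10, CNOT6 and CNOT3, and for 4.61% of all genes tested. All KD libraries lay below all NC libraries for 1 of the 10 (4.94% of all genes tested), all lay above for 1 (4.85%), and the groups overlapped for 8. The median log2 fold change of the 10 was 0.03, and that of all genes tested was 0.00 with a 5th to 95th percentile of -0.42 to 0.44. All 10 had a mean above 185, the median of all genes tested.

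**Figure D1:**
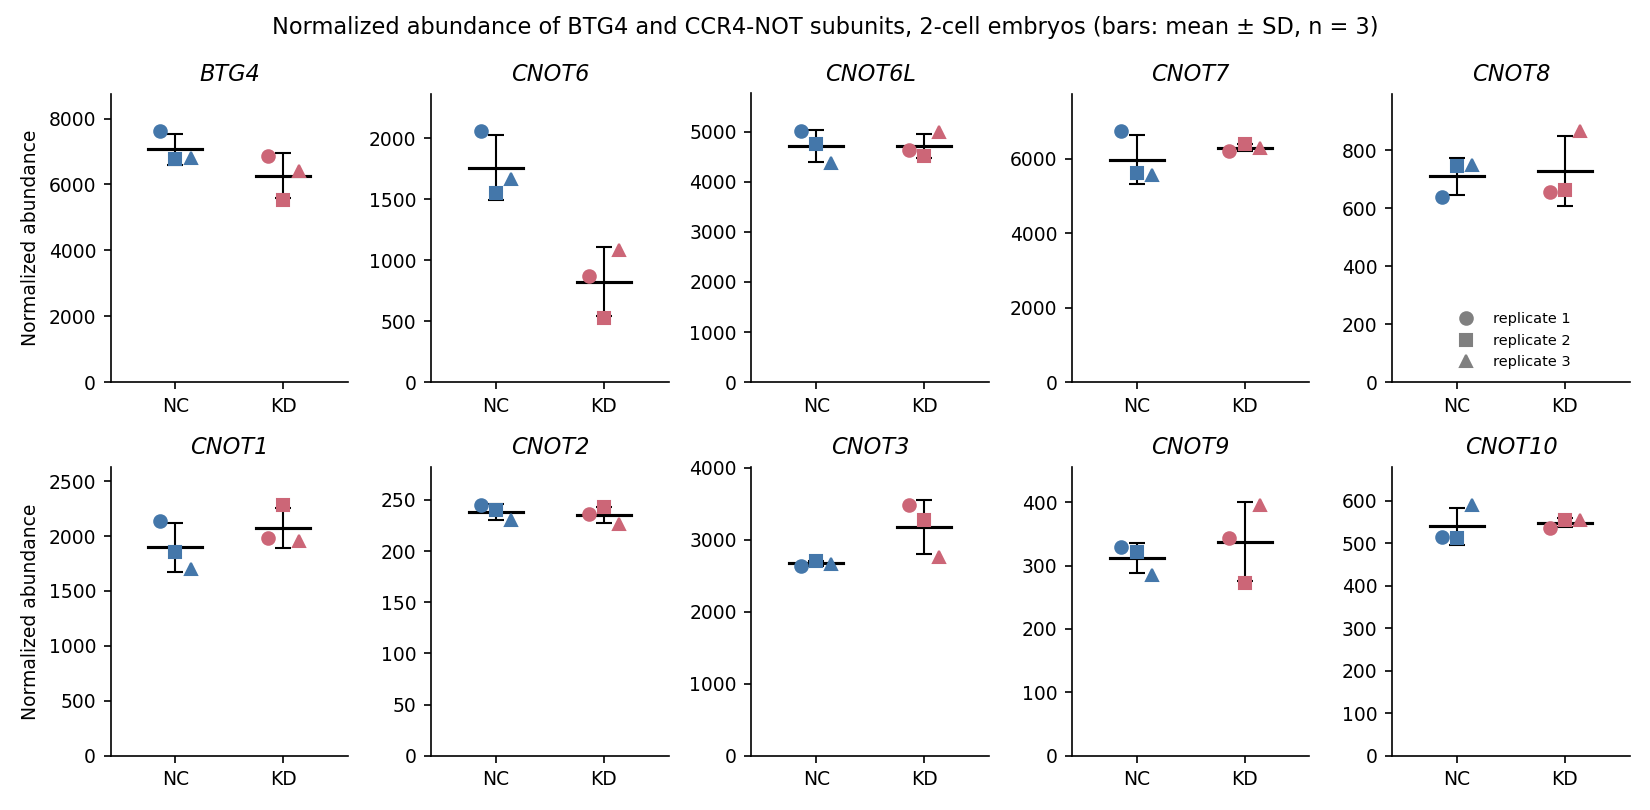
Normalized abundance (vertical axes from 0, a scale of its own for each gene) of BTG4 and 9 CCR4-NOT subunits in 3 NC and 3 KD libraries; points are libraries, with the replicate number as the symbol, and bars show mean ± SD. CNOT6 lies at 1549 to 2057 in NC and 522 to 1079 in KD. CNOT3 lies higher in every KD library than in any NC library, in KD replicate 3 only slightly. The groups overlap for the other 8 genes.

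The nuclease subunits of CCR4-NOT form related pairs, CNOT6 with CNOT6L and CNOT7 with CNOT8, and a complex is thought to hold 1 member of each pair. CNOT6, a nuclease of the exonuclease-endonuclease-phosphatase family, was lower in KD. Its normalized abundance was 2057, 1549 and 1667 in NC replicates 1, 2 and 3 and 870, 522 and 1079 in KD replicates 1, 2 and 3. Every KD library lay below every NC library, the lowest being KD replicate 2 and the highest KD library KD replicate 3. SIN3A had this order of KD libraries, which was found in 2277 of the 11986 genes tested, CNOT6L and CNOT9 among them. The mean of CNOT6 fell from 1758 ± 266 to 824 ± 281 (SD, n = 3). This left 46.9% of the NC mean on average and 49.5%, 29.7% and 61.4% of it in KD replicates 1, 2 and 3. The log2 fold change was -1.14 (SE 0.19, 95% interval -1.54 to -0.75), with an adjusted p of 0.0131 by limma. It ranked 12 among all genes tested by p. The exact two-sided permutation test over the 6 libraries gave p = 0.1, the smallest that 3 against 3 allows.

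The call of CNOT6 rested on how the variance was estimated and on single NC libraries. With a constant prior variance the adjusted p of CNOT6 was 0.782 (limma), and in that fit 0 genes were called among all tested. With robust empirical Bayes the adjusted p of CNOT6 was 0.667, without NC replicate 1 it was 0.104 and without NC replicate 3 it was 0.0599 (limma). Of the 17 alternative settings run, CNOT6 passed in 13. Leaving out any 1 library gave a log2 fold change from -1.37 to -0.85, and the smallest fall was without KD replicate 2.

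CNOT6L, the paralog of CNOT6 and the form best known from the clearance of maternal mRNA in mouse oocytes, is the comparison of interest here. Its normalized abundance was 5009, 4762 and 4381 in NC replicates 1, 2 and 3 and 4639, 4511 and 4988 in KD replicates 1, 2 and 3. The KD values lay inside the NC range. The means were 4717 ± 316 in NC and 4712 ± 247 in KD (SD, n = 3), the log2 fold change was 0.00 (95% interval -0.18 to 0.18) and the adjusted p was 1 (limma). The interval corresponds to 0.881 to 1.13 times the NC level, and so does not reach the fold of CNOT6.

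The difference between the paralogs was tested directly by their ratio within each library, which does not depend on how libraries were scaled. CNOT6 was 0.411, 0.325 and 0.381 of CNOT6L in NC replicates 1, 2 and 3, and 0.188, 0.116 and 0.216 of it in KD replicates 1, 2 and 3. Every KD ratio lay below every NC ratio. The log2 ratio was -1.43 ± 0.17 in NC and -2.58 ± 0.47 in KD (SD, n = 3). The difference was -1.14 with p = 0.1 in the exact permutation test, the smallest it allows. Since CNOT6L was nearly unchanged, this difference repeats the fall of CNOT6 and is not separate evidence. For the other pair, the log2 ratio of CNOT7 to CNOT8 was 3.07 ± 0.29 in NC and 3.12 ± 0.23 in KD, a difference of 0.05 with p = 1 in the exact permutation test (n = 3).

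**Figure D2:**
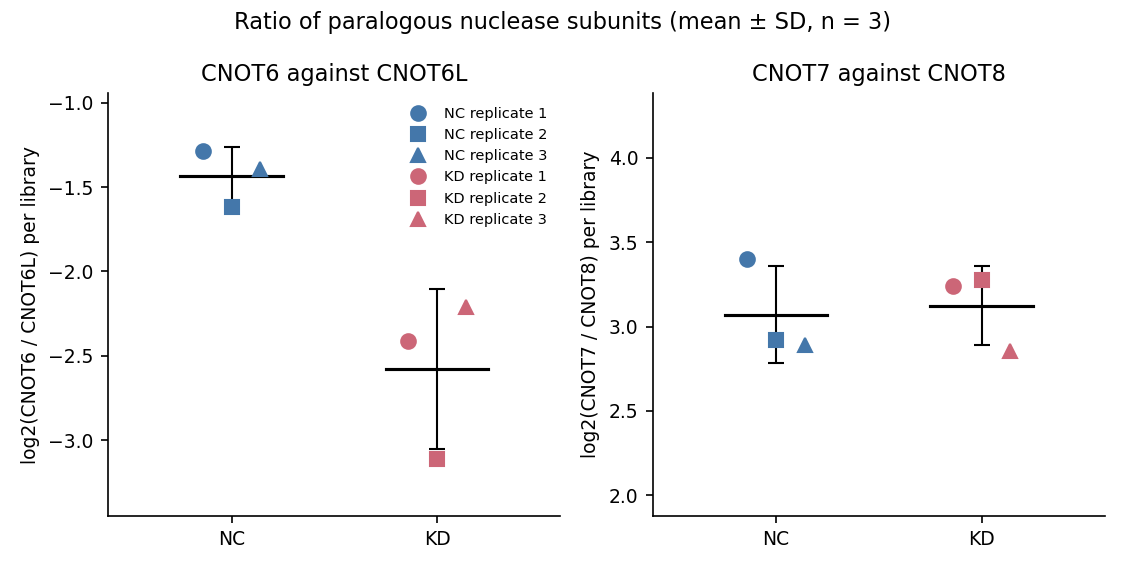
Ratio of paralogous nuclease subunits in each library on a log2 scale, CNOT6 over CNOT6L on the left and CNOT7 over CNOT8 on the right, both axes spanning the same number of log2 units; points are libraries and bars are mean ± SD of 3. The 3 KD ratios of CNOT6 to CNOT6L, -3.11 to -2.21, lie below the 3 NC ratios, -1.62 to -1.28, while the ratios of CNOT7 to CNOT8 overlap.

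The reads of the paralogs can be told apart in principle. The coding sequences of CNOT6 and CNOT6L were 75.2% identical and those of CNOT7 and CNOT8 73.1% identical in alignment, but no pair of the 10 genes had a stretch of 31 bases in common in any of their RefSeq mRNAs. Length differs between the genes, so levels were compared per kilobase, dividing each value by the median length of the gene's RefSeq mRNAs. The deposited values carry Ensembl gene identifiers, and the transcript lengths used in counting may differ, so levels and shares per kilobase are approximate. On that scale CNOT6 had 290 ± 43.9 per kilobase in NC and 136 ± 46.5 in KD, and CNOT6L had 512 ± 34.3 in NC and 512 ± 26.8 in KD (SD, n = 3). CNOT6 thus made up 36.1% ± 2.72 of the summed per-kilobase abundance of the pair in NC and 20.6% ± 5.08 in KD, with p = 0.1 in the exact permutation test (n = 3). The sum of the pair was 884, 773 and 751 per kilobase in NC replicates 1, 2 and 3 and 647, 576 and 720 in KD replicates 1, 2 and 3. The groups did not overlap, and the KD mean of the sum was 80.7% of the NC mean (p = 0.1 in the exact permutation test, n = 3). With CNOT6L at 512 in both groups, the share and the sum carry the same fall of CNOT6.

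CNOT7 and CNOT8, the nucleases of the DEDD family, which bind BTG and TOB proteins, did not pass the test. CNOT7 had a normalized abundance of 6742, 5623 and 5566 in NC replicates 1, 2 and 3 and 6220, 6404 and 6278 in KD replicates 1, 2 and 3. The KD values lay inside the NC range and were closer to each other, with a coefficient of variation of 1.5% against 11.09% in NC. CNOT7 had a log2 fold change of 0.08 (95% interval -0.11 to 0.27). CNOT8 had a normalized abundance of 637, 743 and 750 in NC and 656, 661 and 865 in KD, in replicate order. The groups overlapped and the log2 fold change was 0.03 (95% interval -0.24 to 0.29). CNOT8 made up 7.66% ± 1.34 of the summed per-kilobase abundance of the pair in NC and 7.37% ± 1.13 in KD (SD, n = 3).

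BTG4, the adaptor of the oocyte and early embryo, had a normalized abundance of 7617, 6772 and 6800 in NC replicates 1, 2 and 3 and 6851, 5513 and 6410 in KD replicates 1, 2 and 3. KD replicate 1 lay inside the NC range and the other 2 KD libraries below it, the lowest being KD replicate 2. The log2 fold change was -0.18 (95% interval -0.38 to 0.02), with an unadjusted p of 0.0744 and an adjusted p of 0.997 (limma). The interval allows a level from 0.770 to 1.01 times that of NC, and a fall of the size seen in CNOT6 lies outside it.

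CNOT1 is the large scaffold on which the complex is built. Its normalized abundance was 2137, 1854 and 1696 in NC replicates 1, 2 and 3 and 1984, 2286 and 1959 in KD replicates 1, 2 and 3. The groups overlapped, and the log2 fold change was 0.13 (95% interval -0.09 to 0.35). CNOT2 and CNOT3 form the NOT module at one end of CNOT1. CNOT2 had 245, 240 and 230 in NC and 236, 243 and 227 in KD, in replicate order, and a log2 fold change of -0.02 (95% interval -0.31 to 0.27). Its values overlapped almost completely.

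CNOT3 was the other gene of the 10 whose groups did not overlap. Its normalized abundance was 2642, 2706 and 2667 in NC replicates 1, 2 and 3 and 3489, 3275 and 2756 in KD replicates 1, 2 and 3. The NC libraries lay very close together, with a coefficient of variation of 1.20%, and KD replicate 3 lay just above them. The means were 2672 ± 32.0 and 3173 ± 377 (SD, n = 3), and the log2 fold change was 0.24 (95% interval 0.04 to 0.44). With an unadjusted p of 0.0227 and an adjusted p of 0.997 (limma), CNOT3 did not pass the test across all genes. The CNOT3 mRNA had the highest GC content of the 10, at 60.1%, and that of CNOT6 the lowest, at 35.2%. Across the 9763 tested genes with a RefSeq match, the median log2 fold change ran from -0.05 in mRNAs under 40% GC to 0.06 in those over 55%. After a correction for GC content and length, chosen after seeing the data, the log2 fold change was 0.16 for CNOT3 and -1.09 for CNOT6.

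CNOT9 and CNOT10 lie in modules that meet other proteins, CNOT9 as a docking surface for RNA-binding adaptors and CNOT10 as a partner of CNOT11 at the other end of the scaffold. CNOT9 had a normalized abundance of 330, 321 and 286 in NC and 344, 273 and 396 in KD, in replicate order. KD replicate 2 was the lowest and KD replicate 3 the highest of the 6 libraries, and the log2 fold change was 0.10 (95% interval -0.22 to 0.42). CNOT10 had 515, 512 and 591 in NC and 536, 556 and 554 in KD, with a log2 fold change of 0.03 (95% interval -0.21 to 0.27). The KD values of CNOT10 lay inside the NC range. For the 9 genes other than CNOT6, the adjusted p-values were 0.997 to 1 (limma), and the 95% intervals together ran from 0.770 to 1.36 times the NC level.

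**Figure D3:**
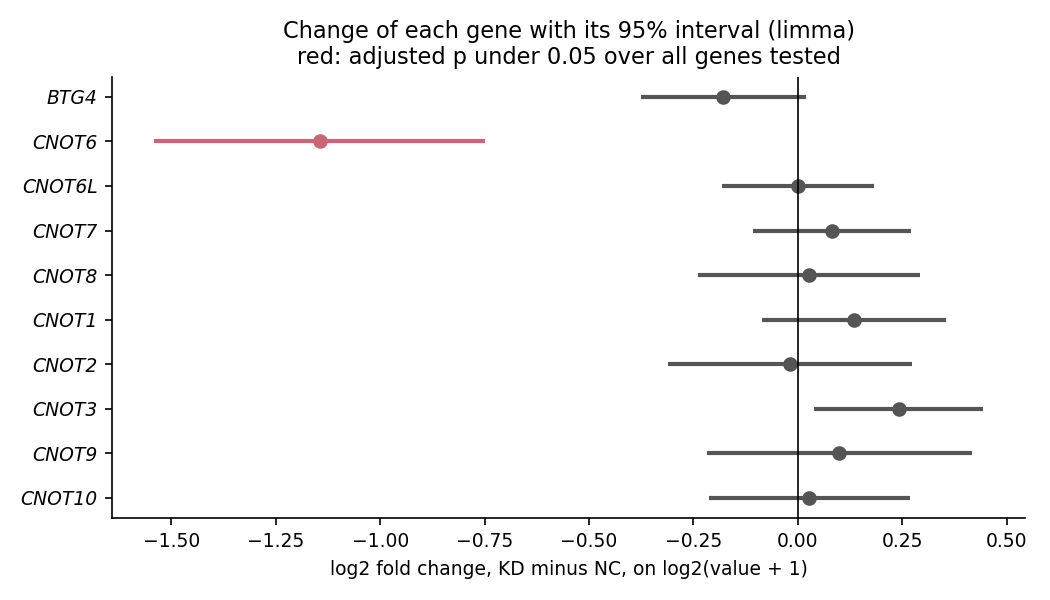
Log2 fold change, KD minus NC, on log2(value + 1) for BTG4 and 9 CCR4-NOT subunits; points are limma estimates from 3 libraries per group, lines are 95% intervals and red marks an adjusted p under 0.05 over all genes tested. CNOT6 at -1.14 lies apart from the other 9, which run from -0.18 to 0.24.

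The spread between KD libraries also differed among the genes. CNOT6 had a coefficient of variation of 34.2% in KD and 15.1% in NC, whereas the other 9 genes had 1.5% to 18.4% in KD. The order of KD libraries seen in SIN3A, with KD replicate 2 lowest and KD replicate 3 highest, was found in CNOT6, CNOT6L and CNOT9, 3 of the 10 genes, and in 2277 of the 11986 genes tested.

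On the per-kilobase scale in NC, with the median mRNA length of each gene, BTG4 and the nuclease subunits held 5 of the 6 highest places. BTG4 was highest at 4130 ± 281 per kilobase and CNOT7 next at 3627 ± 402 (SD, n = 3), and the libraries of these neighbours overlapped. CNOT3 followed at 570 ± 6.84 and CNOT6L at 512 ± 34.3, without overlap between them. CNOT8 at 297 ± 26.6 and CNOT6 at 290 ± 43.9 overlapped. CNOT1 was at 226 ± 26.6, its highest library just under the lowest of CNOT6, and CNOT2 at 98.0 ± 3.19. CNOT9 at 84.2 ± 6.27 and CNOT10 at 70.5 ± 5.79 were lowest and overlapped. The length used matters for this order, since with the shortest RefSeq mRNA of each gene CNOT1 at 378 per kilobase would pass CNOT8 at 305 and CNOT6 at 298, and CNOT10 would rise to 193. With the longest mRNA, CNOT3 at 433 per kilobase would fall below CNOT6L at 505.

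The genes whose pattern over the 6 libraries was most like that of CNOT6, by Pearson r on log2(value + 1) among 7243 genes with a mean of at least 100, were FAXDC2 (r = 0.995), SPART (0.994), IPO5 (0.992), CEP83 (0.992) and RPA2 (0.991). These r are descriptive, and all 6 points share the split between NC and KD. IPO5, an importin that carries proteins into the nucleus, had means of 153 in NC and 81.2 in KD, and FAXDC2 616 and 510.2. IPO5 did not pass the test (adjusted p = 0.182, limma), nor did SPART (adjusted p = 0.467, limma). The r of SIN3A with CNOT6 was 0.968. Most like CNOT6L were PPP4R2 (r = 0.987), NBR1 (0.986), ABCE1 (0.984), C11orf58 (0.981) and SRSF7 (0.98), whose means differed little between the groups, as with PPP4R2 at 2354 in NC and 2310 in KD.

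Further genes were taken from 6 lists of tail shortening, decay and maternal transcripts that hold 64 genes. Of these, 53 were found by name and 52 were tested, and none was called in either direction at an adjusted p under 0.05 with limma, beside 0.159% of all genes tested. At an unadjusted p under 0.05 there were 2, BTG2 and PABPC1, and 5 of the 52 had groups that did not overlap, beside 9.79% of all genes tested.

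Other CCR4-NOT subunits and partners had a median log2 fold change of -0.07 over the 6 tested of 8 listed. CNOT11, the partner of CNOT10, was the most abundant at 3344 ± 165 in NC and 3220 ± 392 in KD (SD, n = 3). BTG2, an antiproliferative relative of BTG4, was at 17.7, 8.77 and 18.8 in NC and 6.81, 7.90 and 1.10 in KD, in replicate order. These are values of few reads, and although the groups did not overlap, the log2 fold change of -1.55 had an adjusted p of 0.997 (limma). TOB1, a further BTG/TOB relative, had a log2 fold change of -0.15.

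Genes listed as deadenylases outside CCR4-NOT numbered 7, all tested, with a median log2 fold change of -0.01. NOCT, a circadian protein of the same enzyme family as CNOT6, was the most abundant at 2963, 2973 and 2880 in NC and 2764, 2448 and 2693 in KD. Its groups did not overlap, but the log2 fold change of -0.16 had an adjusted p of 0.997 (limma). PNLDC1, which trims piRNA ends, had a log2 fold change of 0.27 and ANGEL1 one of 0.26, with overlapping groups in both.

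Proteins that recruit CCR4-NOT to mRNA had a median log2 fold change of 0.06 over the 14 tested of 17 listed. TNRC6A, the scaffold of microRNA silencing, was the most abundant, with 6065, 5289 and 5711 in NC and 6075, 6298 and 6546 in KD. All KD libraries lay above all NC libraries, but the log2 fold change of 0.15 had an adjusted p of 0.997 (limma). RC3H2, a relative of roquin, had 69.0 ± 22.6 in NC and 46.2 ± 7.96 in KD (SD, n = 3). SAMD4A, the SMAUG protein, was at 4.90, 5.72 and 36.7 in NC and 6.13, 9.58 and 9.46 in KD, so its mean in NC rested on NC replicate 3.

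For decapping and decay, 11 of 14 listed genes were tested, with a median log2 fold change of 0.05. EIF4ENIF1, which binds the cap-binding protein and represses stored mRNA, was the most abundant at 9813 ± 808 in NC and 10322 ± 911 in KD (SD, n = 3). TUT4, which adds uridines to shortened tails, had a log2 fold change of -0.27 and LSM1, of the ring that binds shortened tails, one of 0.26, both with overlapping groups.

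Genes of poly(A) addition and binding had a median log2 fold change of 0.03 over the 6 tested of 8 listed. CPEB1, which directs tail lengthening in the oocyte, was the most abundant, at 2499 ± 29.3 in NC and 2544 ± 180 in KD (SD, n = 3). PABPC1, the poly(A) binding protein of somatic cells, was at 32.1, 55.6 and 31.2 in NC and 22.7, 17.7 and 19.7 in KD. The groups did not overlap, and the log2 fold change of -0.91 had an unadjusted p of 0.0187 and an adjusted p of 0.971 (limma). TENT2, a cytoplasmic poly(A) polymerase, had a log2 fold change of -0.28 with overlapping groups.

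Maternal transcripts of the oocyte, a list of mRNAs laid down before maturation, had a median log2 fold change of 0.05 over the 8 tested of 10 listed. BMP15, a growth factor of the oocyte, was at 21056, 20095 and 19476 in NC and 20885, 24182 and 21473 in KD, and KIT, the receptor of stem cell factor, had a log2 fold change of 0.14. The 8 ran from -0.03 to 0.14.

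**Figure D4:**
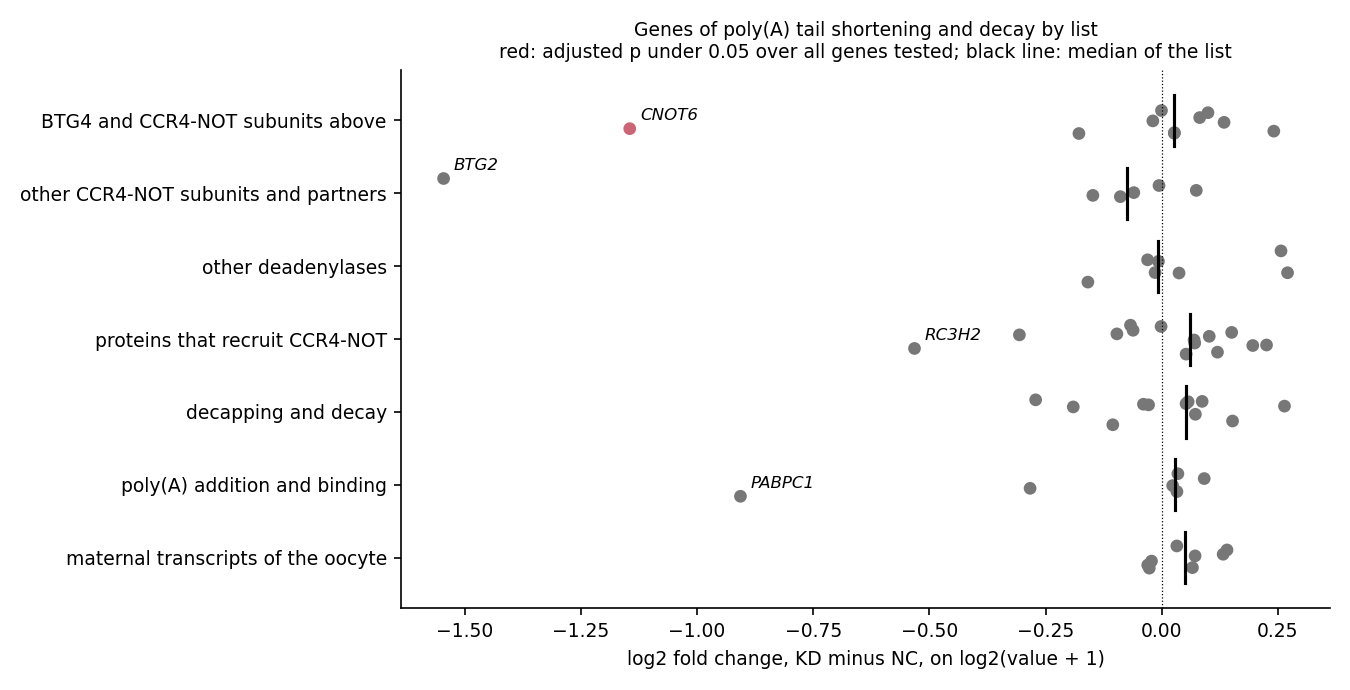
Log2 fold change, KD minus NC, on log2(value + 1) for BTG4 and the 9 CCR4-NOT subunits (top) and for the 52 tested genes of 6 lists of tail shortening, decay and maternal transcripts; each point is a gene, black lines are list medians and red marks an adjusted p under 0.05 over all genes tested. CNOT6 is the only red point, and BTG2 and PABPC1, both at low abundance, are the only other genes below -0.8.

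The nearest stretches to the 3 siRNA targets were counted without gaps in the longest RefSeq mRNA of each gene. For siRNA 3, CNOT6 had 4 mismatches, as printed above, CNOT7 had 8 and the other 8 genes had 7, which was also the median of 9761 genes tested. At most 4 mismatches to this target were found in 67 of the 9761 genes (0.686%), and 4 of the 67 were among the 11 genes lower in KD that could be matched to RefSeq, SIN3A left out. These 4 were CNOT6, EWSR1, LIMA1 and SPRTN, named after their values were seen. The cut of 4 is the count of CNOT6 itself, so CNOT6 is among them by the choice of cut. The 11 genes were called in these same data, and none of these counts was tested against the share of all genes. With at most 5 mismatches there were 532 genes (5.45%), which included 7 of the 11. For siRNAs 1 and 2, at most 4 mismatches were found in 103 and 82 genes, and none of these was among the 11. The median log2 fold change of the 67 was 0.00, as was that of all 9761. For siRNAs 1 and 2 the nearest stretches of CNOT6 had 7 and 6 mismatches. The stretch that pairs with the seed of an siRNA is bases 12 to 18 of its target, and it was searched on the mRNA strand only, over the whole longest mRNA. For siRNA 3 it was absent from CNOT6 and present in CNOT9, and in 17.3% of the genes. For siRNA 1, whose target in SIN3A is ccaagtgaagctacagttt (chr7:58206532-58206550, plus strand), it was present in CNOT6, in CNOT6L and in 23.4% of the genes. The seed stretch of siRNA 1 was also present in CNOT8 and CNOT1. That of siRNA 2 was absent from CNOT6 and present in CNOT1, CNOT3, CNOT9 and CNOT10, and in 40.2% of the genes. The part of the partial match in the lower abundance of CNOT6 was not tested. The effects of the 3 siRNAs cannot be told apart, since the KD libraries are not labelled by siRNA.

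**Figure D5:**
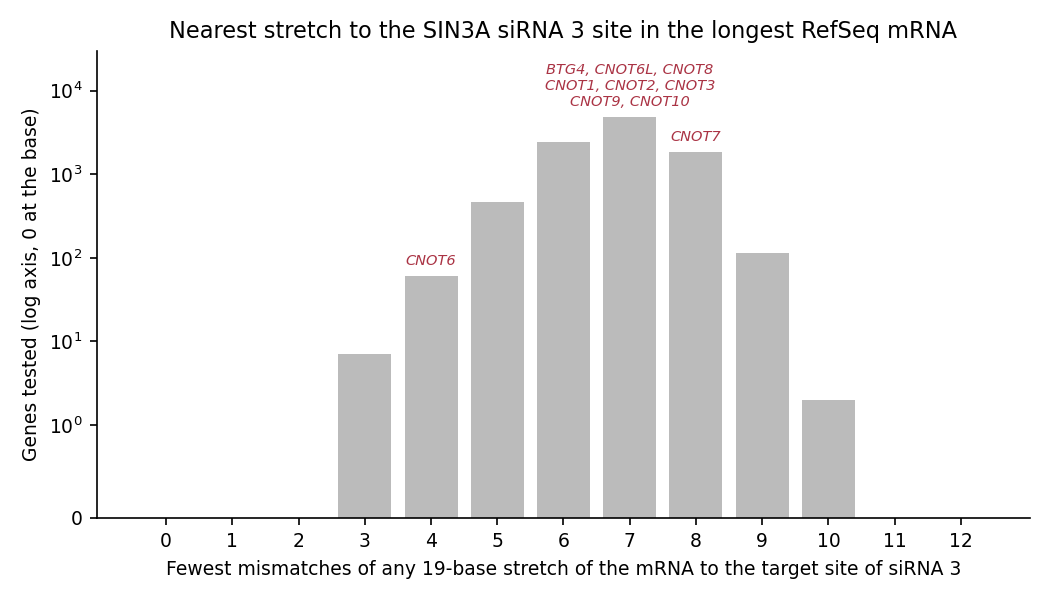
Fewest mismatches of any 19-base stretch of the longest RefSeq mRNA to the target of siRNA 3 (horizontal axis) against the number of genes tested (vertical log axis, 9761 genes without SIN3A), with the 10 genes written above their bar. CNOT6 stands at 4 mismatches, where there are 60 genes, and the other 9 genes stand at 7 or 8.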

How the data were processed

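Values are normalized signal per gene, which the authors made with Salmon 0.14.1 on Sscrofa11.1 and DESeq2 and deposited as 1 table for the 6 libraries. Low values were only partly whole multiples of a step (16.1% to 48.1% within 0.01 reads), so they were treated as signal and count models were not used. Groups came from the sample labels. The spike-in RNAs were not used here, so total mRNA per embryo is unknown. Genes whose mean over libraries was 10 or more were tested with limma 3.58.1 (trended variance) in R 4.3.3 on log2(value + 1), a pseudocount of 1, with Benjamini-Hochberg correction. On this scale, fold changes are understated for low genes. Exact permutation tests were two-sided (scipy 1.17.1). The fit was tested on simulated data. The genes and lists were chosen with earlier results of these data known. Named list genes were, per list, the 2 of largest absolute fold change and the most abundant, with called genes added. Gene positions, lengths and the siRNA targets were read from RefSeq (9763 of 11986 tested genes matched by symbol). Of the gene names, 3575 were blank and could not be recognised.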

Additional observations from a re-analysis of the deposited data

How the results depend on the processing

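The fall of CNOT6 kept its direction under all 17 alternatives, with a log2 fold change of -1.37 to -0.85, and passed the test in 13 of them. It did not pass with no variance trend (-1.14, adjusted p = 0.782, limma) or with robust empirical Bayes (-1.14, adjusted p = 0.667), nor without NC replicate 1 or NC replicate 3, and the cause was not tested. The number of genes called was 19, was 0 with no variance trend (622 at an unadjusted p under 0.05, limma; 0 also with the fold threshold of 0.8, where 15 were called), and was 11 to 19 without single libraries (10 to 14 with that threshold). A fit with the replicate block called 26 genes, and CNOT6 had a log2 fold change of -1.14 with an adjusted p of 1.63e-05. Same-numbered NC and KD libraries had correlations of 0.109, 0.111 and 0.0872 in their deviations from the group means, each library correlating best with its own number, which is a hint and not a pairing stated for the samples. The correction for GC content and length, added after seeing the data, gave 33 genes, and 53 together with the block. None of the other 9 genes passed under any alternative. Those close to 0 changed sign in 16 of 153 comparisons. CNOT6L was at 0.0026 with TMM-like rescaling and at 0.0195 after the GC and length correction (the block made no difference), where CNOT2 was at 0.039. Without single libraries CNOT6L ran from -0.0529 to 0.0437, CNOT8 from -0.104 to 0.095, CNOT2 from -0.0446 to 0.00729, CNOT9 from -0.0242 to 0.245 and CNOT10 from -0.00842 to 0.094, and the difference of the log2 ratio of CNOT7 to CNOT8 from -0.0353 to 0.221. No list gene was called under any of the 15 alternatives run for the lists. With 3 libraries a group, a single gene cannot go below p = 0.1 in the exact permutation test.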
